A study of Mus musculus with 27 samples.

Results

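Distal colon was set against proximal colon within 6 adult control mice, each of which gave a library from both segments. These are 12 of the 27 libraries of the series, chosen by their labels and by no measured value. The series also holds a further proximal control library, from a mouse without a distal partner, and 14 libraries of mice whose gut epithelium lacks the forkhead factors Foxa1 and Foxa2. All 6 mice were male and of mixed background, and a replicate number stands for a mouse. Replicates 2, 3, 4 and 5 were Foxa1lox/lox; Foxa2lox/lox animals without Cre, 9, 10.5, 11 and 18 months old. Replicate 1 was Villin1-Cre; Foxa1lox/wt; Foxa2lox/wt at 10.5 months, and replicate 6 was Villin1-Cre; Foxa1lox/lox; Foxa2lox/wt at 18 months. Villin1-Cre expresses the recombinase in the intestinal epithelium, so replicates 1 and 6 were controls that can carry recombined alleles in those cells, and loxP-flanked alleles were common to all 6. Poly(A) RNA was taken from pieces of whole colon wall, so epithelium, muscle, nerve, immune and connective tissue cells were measured together. A lower level of a gene can therefore come from fewer cells of a type or from less RNA per cell, and these cannot be told apart.

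The colon is a regionalised organ. The proximal colon receives ileal effluent, ferments it, and absorbs short-chain fatty acids, while the distal colon dries and stores faeces, drives sodium uptake through the aldosterone-responsive epithelial sodium channel, and is covered by a mucus layer that the microbiota does not normally penetrate. Position along the gut is set in the embryo by homeobox genes of the Hox clusters, whose order on the chromosome mirrors the order of their expression domains along the body, with the last genes of a cluster used at the tail end.

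Libraries held 40866466 to 54196293 estimated counts in proximal and 29381431 to 56744113 in distal colon. The first principal component carried 54.4% of the variance and separated the segments without overlap. The second, 10.2%, set apart distal replicates 1 and 6, the Cre carriers, and proximal replicate 6. The authors' tool took 249 bases off the length of a long transcript in all distal libraries and 227.95 to 239.39 bases in the proximal ones, so the quantification handled fragment length differently in the segments, and that difference cannot be told apart from the segment itself. The tissue identity of the libraries was checked on markers: the intestinal factor Cdx2 was at 315 to 378 CPM in proximal and 75.6 to 313 CPM in distal libraries, and the small-intestinal lipid carrier Apoa4 was at most 1.38 CPM in any of them. CPM, the unit of level, is a gene's count divided by the TMM-normalised library size and scaled to a common total. The epithelial marker list summed to 13470 to 20690 CPM in proximal and 19530 to 31000 CPM in distal libraries. Of its 12 members 9 were called higher in distal and 0 higher in proximal colon, while 0 and 9 of 15 smooth muscle markers were. The part of this difference in cell makeup in the results that follow was not tested.

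Of 17972 genes tested, 7787 differed between the segments (43.3%; edgeR quasi-likelihood test with mouse as a block, Benjamini-Hochberg adjusted p under 0.05, hereafter called). Of these, 3886 were higher in distal colon (21.6% of genes tested) and 3901 higher in proximal colon (21.7%). These 2 shares are the background for the counts of called members of gene lists below. Called differences of at least 2-fold numbered 3007 (16.7%). For 3439 genes the 6 distal levels did not overlap the 6 proximal levels (19.1%). The median log2 fold change over all genes, distal over proximal, was -0.06. When libraries were scaled to 9 epithelial genes in place of all genes, that median moved to -0.61, 1490 genes were called higher in distal and 10950 higher in proximal colon, and only 12% of calls were higher in distal colon against 49.9%. Directions are from the scaling to all genes. The epithelial scaling is given beside a printed group median whose sign it turned, and beside calls it ended among the 262 genes named by rule. Its effect on other printed genes, such as Apob, Slc5a1 and Foxa3, is not given, so silence does not show that their calls held. Of the 54 gene lists, 48 had more members called higher in proximal colon under the epithelial scaling, 34 had fewer called higher in distal colon, and 11 medians changed sign.

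**Figure D1:**
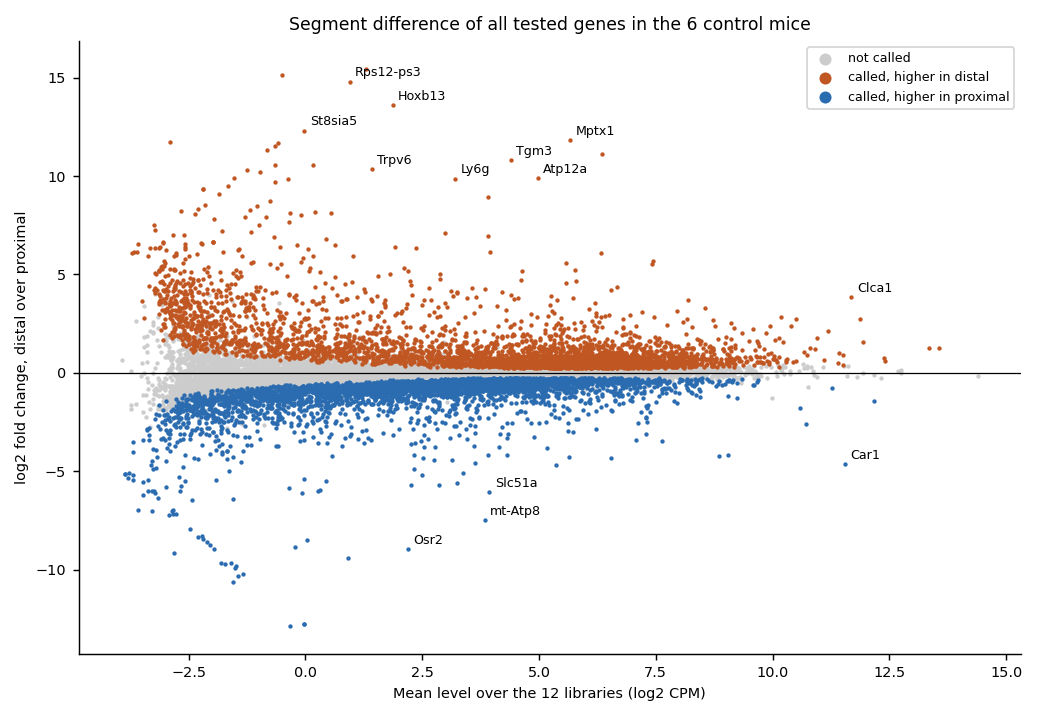
Segment difference of all 17972 tested genes. The x axis is the mean level over the 12 libraries (log2 CPM) and the y axis the log2 fold change, distal over proximal; orange points were called higher in distal, blue points higher in proximal colon, grey points were not called. The called genes number 3886 above and 3901 below 0, and Hoxb13, Mptx1, Tgm3 and Atp12a above and Osr2 and mt-Atp8 below are among the labelled points.

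Several Hox genes were all but silent in one segment and well expressed in the other. Hoxb13, the last gene of cluster B (ENSMUSG00000049604.3, GRCm38 chromosome 11 from 96194316 to 96197447 on the plus strand), was at 0 to 0.0954 CPM in proximal (median 0) and 112 to 483 CPM in distal libraries (median 214). It was all but undetected in every proximal library and abundant in every distal one (log2 fold change 13.59, SE 0.37, adjusted p = 5.94e-08). Hoxa13, the last gene of cluster A, was at 0.288 to 1.18 CPM in proximal (median 0.732) and 70.9 to 121 CPM in distal libraries (median 87.9). For Hoxa13 the log2 fold change was 7.11 (SE 0.33, adjusted p = 1.08e-06). Hoxd13 was at 0 to 0.0847 CPM in proximal (median 0.0543) and 0.94 to 67.7 CPM in distal libraries (median 3.83) (log2 fold change 7.65, SE 0.72, adjusted p = 6.31e-05), and its distal levels spread over a wide range. All 3 were higher in distal colon in 6 of 6 mice with no overlap. Hoxb13 is also among the genes ranked by size below, for which 1 direction in all 6 mice was a condition.

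The genes of cluster B in front of Hoxb13 went the other way. Hoxb6 (ENSMUSG00000000690.5, GRCm38 chromosome 11 from 96292476 to 96301569 on the plus strand) was at 59.8 to 70.5 CPM in proximal (median 67.6) and 0.695 to 2.46 CPM in distal libraries (median 1.27). For Hoxb6 the log2 fold change was -5.57 (SE 0.26, adjusted p = 1.09e-06). Hoxb8 (ENSMUSG00000056648.5, GRCm38 chromosome 11 from 96281905 to 96285315 on the plus strand) was at 30.9 to 46.9 CPM in proximal (median 32.4) and 0.343 to 1.64 CPM in distal libraries (median 0.52). For Hoxb8 the log2 fold change was -5.67 (SE 0.31, adjusted p = 2.53e-06). Both were uniform across the proximal libraries, and no distal library came near them. The 8 genes from Hoxb9 to Hoxb2 were all called higher in proximal colon, with log2 fold changes from -5.67 (Hoxb8) to -1.17 (Hoxb9), and their proximal and distal levels did not overlap. Hoxb1, at the front end, was not called (log2 fold change 0.23, SE 0.23, adjusted p = 0.441). The starts of Hoxb13 and Hoxb9 lie 77.1 kb apart, the widest gap between neighbours in that cluster, and the direction turned across it. Only 47.3% of the 31-base words of Hoxb3 occur in no other gene's transcripts, so its value is less certain.

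Cluster A held no such turn. Hoxa13, Hoxa11, Hoxa10, Hoxa9, Hoxa7, Hoxa6 and Hoxa5 were called higher in distal colon, and none of the 11 tested genes was called higher in proximal colon. Hoxa10 was at 3.44 to 6.9 CPM in proximal (median 6.12) and 44.8 to 67.3 CPM in distal libraries (median 54.4) (log2 fold change 3.37, SE 0.15, adjusted p = 8.61e-07), and Hoxa9 at 1.29 to 3.2 CPM in proximal (median 2.58) and 26.2 to 43 CPM in distal libraries (median 34.2). For Hoxa9 the log2 fold change was 3.88 (SE 0.21, adjusted p = 2.36e-06). Their lowest distal level lay above their highest proximal level. Hoxa7 had a log2 fold change of 0.59 and overlapping levels, and lost its call without replicate 5 (log2 fold change 0.51, adjusted p = 0.0509), with a length offset (log2 fold change 0.43, adjusted p = 0.0745) and with epithelial scaling (log2 fold change 0.04, adjusted p = 0.844).

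In cluster D, Hoxd13 alone was called higher in distal colon and the 7 other tested genes were called higher in proximal colon. Hoxd4 was at 3.91 to 8.38 CPM in proximal (median 6.16) and 0.224 to 0.417 CPM in distal libraries (median 0.318) (log2 fold change -4.23, SE 0.20, adjusted p = 1.08e-06), and Hoxd8 at 4.75 to 9.88 CPM in proximal (median 8.06) and 0.503 to 1.2 CPM in distal libraries (median 0.719). For Hoxd8 the log2 fold change was -3.30 (SE 0.26, adjusted p = 2.36e-05). Here the direction turned between Hoxd13 and Hoxd11, whose starts are 11.2 kb apart. Hoxd11 overlapped between segments (log2 fold change -1.83, SE 0.48, adjusted p = 0.013) and lost its call without the mouse block (log2 fold change -1.37, adjusted p = 0.0532). Of the 31-base words of Hoxd3 and Hoxd4, 38.8% and 50.9% were unique to the gene, so their values are less certain. Cluster C was near the detection limit. Hoxc10 held 158 counts over the 6 proximal and 2 over the 6 distal libraries, a ratio of 66.3 with a 95% counting interval of 18.1 to 553 (exact, on counts per library total, counting error only). Hoxc6 was also called higher in proximal colon (log2 fold change -4.35, SE 0.56, adjusted p = 0.00034), and Hoxc8 (log2 fold change -1.23, SE 0.43, adjusted p = 0.0416) lost its call without replicates 1, 2, 3, 5 or 6 in turn, with adjusted p from 0.0551 to 0.101. Hoxd1 had 45 counts in proximal and 0 in distal libraries, at least 12.6-fold lower in distal colon against a floor of 3 counts over the group.

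By cluster, 8 of 11 tested genes of A, 1 of 10 of B, 0 of 5 of C and 1 of 8 of D were called higher in distal colon, and 0, 8, 3 and 7 higher in proximal colon. The median log2 fold changes were 1.41, -3.45, -1.23 and -3.16 in the same order. Of 16 posterior genes (groups 9 to 13) 12 passed the filter on low counts, and 6 were called higher in distal and 5 in proximal colon. Of 23 anterior and middle genes (groups 1 to 8) 22 passed, with 4 and 13.

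**Figure D2:**
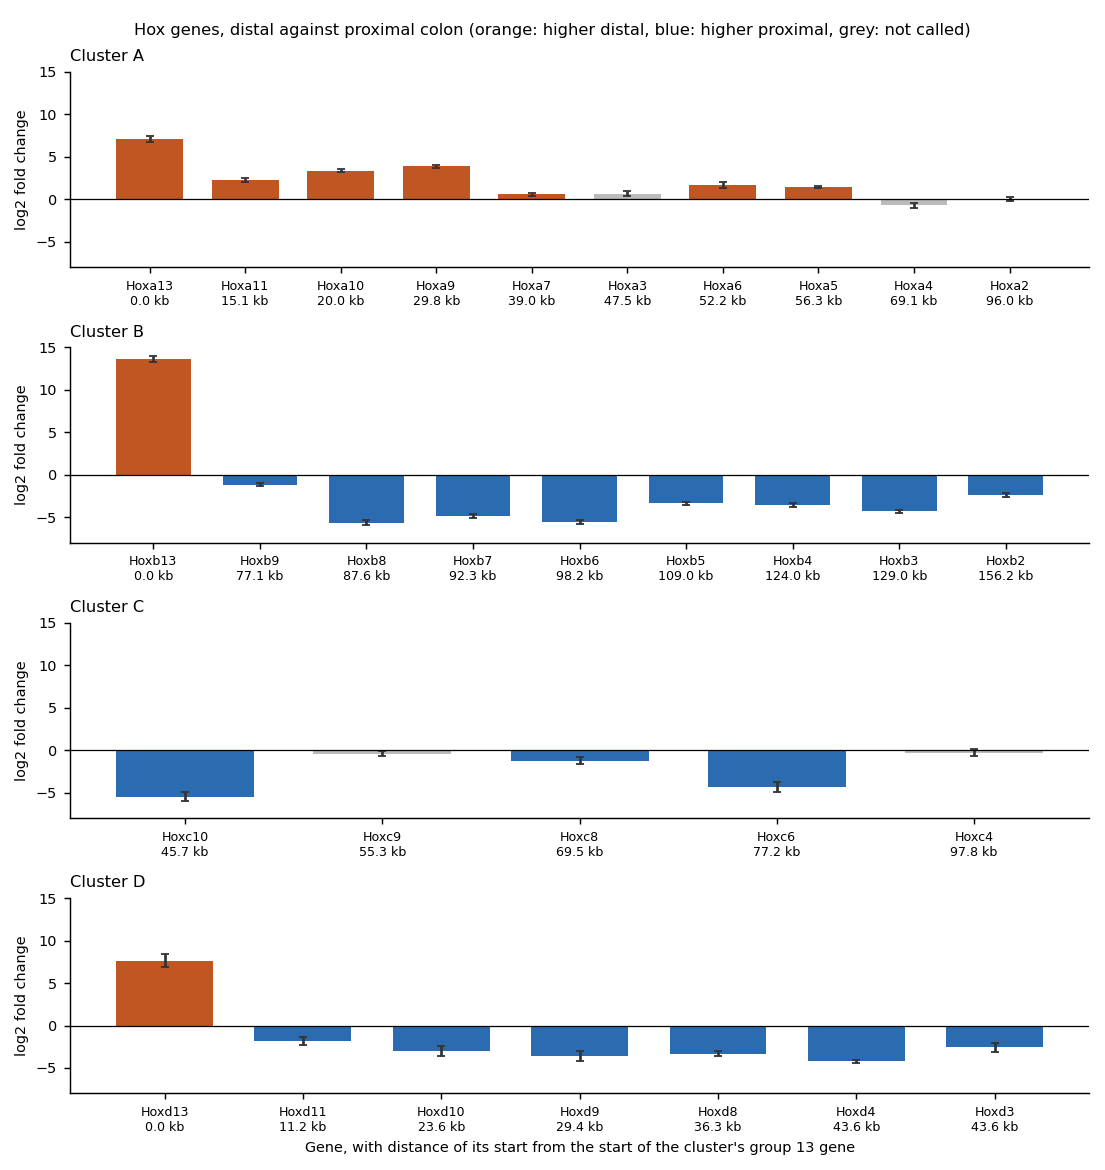
Hox genes of groups 13 to 2 in their order along clusters A to D, starting at the group 13 end. Bars are log2 fold changes, distal over proximal, from the fit on 6 mice, with standard errors derived from its F statistic. Orange bars were called higher in distal, blue bars higher in proximal colon, and grey bars were not called. The distance of each gene's start from that of the group 13 gene is given in kb. The sign turns from 13.59 at Hoxb13 to -1.17 at Hoxb9 in cluster B and from 7.65 at Hoxd13 to -1.83 at Hoxd11 in cluster D, while no gene of cluster A shown was called below 0.

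Other transcription factors of the gut tube split as well. Osr2, a zinc finger factor of developing limb and gut tissue (ENSMUSG00000022330.5, GRCm38 chromosome 15 from 35296098 to 35303305 on the plus strand), was at 90.7 to 132 CPM in proximal (median 95.8) and 0.0671 to 0.644 CPM in distal libraries (median 0.124). For Osr2 the log2 fold change was -8.94 (SE 0.35, adjusted p = 3.82e-07). It was close to 0 in every distal library. Of the 19 listed endoderm factors, 7 were called higher in distal and 7 in proximal colon, with a median log2 fold change of -0.15. Tfcp2l1 was at 216 to 436 CPM in proximal (median 257) and 545 to 761 CPM in distal libraries (median 655) (log2 fold change 1.26, SE 0.15, adjusted p = 0.000212), and Klf4, a factor of differentiated and goblet cells, was at 500 to 778 CPM in proximal and 1059 to 1631 CPM in distal libraries. For Klf4 the log2 fold change was 1.24 (SE 0.15, adjusted p = 0.00025). Isx, an intestine-specific homeobox factor that limits vitamin A uptake, was at 113 to 151 CPM in proximal and 10 to 48.3 CPM in distal libraries (log2 fold change -2.35, SE 0.31, adjusted p = 0.000408), and Cdx2, a master factor of intestinal identity, at 315 to 378 CPM in proximal and 75.6 to 313 CPM in distal libraries. For Cdx2 the log2 fold change was -1.01 (SE 0.26, adjusted p = 0.0128). Gata4, a factor of the upper small intestine, was at 0.203 to 0.474 CPM in proximal (median 0.383) and 1.28 to 3.47 CPM in distal libraries (median 2.27) (log2 fold change 2.60, SE 0.26, adjusted p = 8.3e-05), and lost its call with a length offset (log2 fold change 0.98, adjusted p = 0.0552).

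Foxa1 and Foxa2, the factors that the series deletes, were both expressed in these controls. Foxa2 (ENSMUSG00000037025.11, GRCm38 chromosome 2 from 148042877 to 148046969 on the minus strand) was at 5.85 to 15.1 CPM in proximal (median 7.04) and 14.9 to 29.4 CPM in distal libraries (median 18.2) and higher in distal colon in 6 of 6 mice (log2 fold change 1.28, SE 0.14, adjusted p = 0.000171). Foxa1 (ENSMUSG00000035451.7, GRCm38 chromosome 12 from 57540628 to 57546916 on the minus strand) was at 13.4 to 67.1 CPM in proximal (median 61.1) and 7.41 to 78.2 CPM in distal libraries (median 47.4) and not called (log2 fold change -0.28, SE 0.15, adjusted p = 0.157), but with epithelial scaling it was (log2 fold change -0.83, adjusted p = 0.002). The lowest Foxa1 level in both segments was that of replicate 6, the Cre carrier whose 2 Foxa1 alleles are flanked by loxP. The related Foxa3 was at 32.1 to 43.5 CPM in proximal and 39.1 to 53.9 CPM in distal libraries. For Foxa3 the log2 fold change was 0.34 (SE 0.11, adjusted p = 0.0267).

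The genes ranked by size held others that were near-silent in proximal colon. Mptx1, a mucosal pentraxin (ENSMUSG00000026531.4, GRCm38 chromosome 1 from 174330518 to 174332873 on the plus strand), was at 0.21 to 1.75 CPM in proximal (median 0.845) and 1090 to 6888 CPM in distal libraries (median 3679). For Mptx1 the log2 fold change was 11.81 (SE 0.68, adjusted p = 3.53e-06). Tgm3, an epidermal-type transglutaminase that cross-links proteins (ENSMUSG00000027401.9, GRCm38 chromosome 2 from 130012349 to 130050399 on the plus strand), was at 0.183 to 1.79 CPM in proximal (median 0.386) and 245 to 2981 CPM in distal libraries (median 724). For Tgm3 the log2 fold change was 10.80 (SE 0.58, adjusted p = 2.36e-06). Each was under 2 CPM in every proximal library and over 200 CPM in every distal one. Atp12a, the catalytic subunit of the colonic proton-potassium pump (ENSMUSG00000022229.3, GRCm38 chromosome 14 from 56365068 to 56388550 on the plus strand), was at 0.491 to 2.05 CPM in proximal (median 0.955) and 348 to 2905 CPM in distal libraries (median 792). For Atp12a the log2 fold change was 9.90 (SE 0.37, adjusted p = 3.04e-07). Trpv6, the apical calcium channel of absorptive epithelia (ENSMUSG00000029868.13, GRCm38 chromosome 6 from 41620624 to 41636405 on the minus strand), was at 0 to 0.123 CPM in proximal (median 0.0817) and 12.8 to 458 CPM in distal libraries (median 70.9) (log2 fold change 10.35, SE 0.55, adjusted p = 2.36e-06), and its distal levels spanned a wide range. Sval1 (ENSMUSG00000029865.4, GRCm38 chromosome 6 from 41951630 to 41956098 on the plus strand) was at 0.191 to 1.15 CPM in proximal (median 0.716) and 232 to 532 CPM in distal libraries (median 324). For Sval1 the log2 fold change was 8.95 (SE 0.40, adjusted p = 8.9e-07). Casp14, a caspase of epidermal cornification, held 2790 counts over the distal and 2 over the proximal libraries, a ratio of 1660 with a 95% counting interval of 459 to 13700. St8sia5, a sialyltransferase of gangliosides, held 5889 and 1, a ratio of 7010 with an interval of 1260 to 277000. Krtap13 was at 0 to 0.0716 CPM in proximal and 3.63 to 11.7 CPM in distal libraries. For Krtap13 the log2 fold change was 8.73 (SE 0.41, adjusted p = 1.08e-06).

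Ly6g, known as the surface antigen that marks mouse neutrophils (ENSMUSG00000022582.4, GRCm38 chromosome 15 from 75155240 to 75159126 on the plus strand), was at 0.0876 to 1.67 CPM in proximal (median 0.21) and 119 to 945 CPM in distal libraries (median 179.8). For Ly6g the log2 fold change was 9.87 (SE 0.46, adjusted p = 1.08e-06). The ranking by size took only genes with 1 direction in all 6 mice, so that trait of Ly6g was set by the rule. Of its 31-base words, 90.5% occur in no other gene's transcripts. The other neutrophil markers did not share its level. Csf3r was at 0.613 to 1.79 CPM in proximal and 0.503 to 1.96 CPM in distal libraries, Cxcr2 at 0.448 to 1.02 CPM in proximal and 0.293 to 1.1 CPM in distal libraries and Mmp9 at 0.573 to 2.36 CPM in proximal and 0.586 to 1.62 CPM in distal libraries, and 0 of these 3 was called. S100a8 was called at a low level, 0.0407 to 0.589 CPM in proximal (median 0.112) and 1.01 to 16.1 CPM in distal libraries (median 2.58). For S100a8 the log2 fold change was 3.98 (SE 0.76, adjusted p = 0.00288).

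The list of largest differences also held gene copies whose reads cannot be placed with certainty. Rps12-ps3, H3f3c and RPS10-NUDT3 had 0 counts in every proximal library and 17683, 1973 and 1887 counts over the distal ones, at least 7020-fold, 783-fold and 749-fold higher in distal colon against the floor of 3 counts over the group. Of their 31-base words, 0%, 8.66% and 3.14% were unique to the gene. Rpl9-ps6 (7.31%) and Khdc1a (41.4%) were likewise little unique. Whether the handling of fragment length put reads on these copies was not tested.

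On the proximal side, Slc51a, a subunit of the basolateral bile acid exporter (ENSMUSG00000035699.8, GRCm38 chromosome 16 from 32474504 to 32487879 on the minus strand), was at 90.8 to 220.5 CPM in proximal (median 131) and 0.544 to 5.64 CPM in distal libraries (median 1.98). For Slc51a the log2 fold change was -6.05 (SE 0.46, adjusted p = 1.95e-05). Nts, which encodes the peptide neurotensin (ENSMUSG00000019890.4, GRCm38 chromosome 10 from 102481756 to 102490486 on the minus strand), was at 39 to 67.3 CPM in proximal (median 59.2) and 0.167 to 4.4 CPM in distal libraries (median 0.954). For Nts the log2 fold change was -5.69 (SE 0.44, adjusted p = 2.02e-05). Sis, the brush-border enzyme sucrase-isomaltase (ENSMUSG00000027790.14, GRCm38 chromosome 3 from 72888557 to 72967863 on the minus strand), was at 3.8 to 47.9 CPM in proximal (median 7.77) and 0.0386 to 0.294 CPM in distal libraries (median 0.109). For Sis the log2 fold change was -5.96 (SE 0.55, adjusted p = 5.48e-05). In none of these did a distal library reach the lowest proximal one. Cyp3a25 was at 4.59 to 35.6 CPM in proximal (median 12.1) and 0 to 0.112 CPM in distal libraries (median 0) (log2 fold change -8.85, SE 0.55, adjusted p = 5.52e-06), and its neighbour and paralog Cyp3a44 at 7.86 to 67.3 CPM in proximal (median 11.7) and 0 to 0.224 CPM in distal libraries (median 0). For Cyp3a44 the log2 fold change was -8.49 (SE 0.65, adjusted p = 1.9e-05). These cytochrome P450 genes share words (54.1% and 51.6% unique), so their split between them is uncertain. Ugt8a, which makes galactosylceramide, was at 4.33 to 16.6 CPM in proximal (median 6.22) and 0.0386 to 0.14 CPM in distal libraries (median 0.0949). For Ugt8a the log2 fold change was -6.12 (SE 0.36, adjusted p = 4.06e-06). Slc26a1, a sulfate transporter, was at 4.24 to 19.6 CPM in proximal and 0 to 0.368 CPM in distal libraries (log2 fold change -5.99, SE 0.32, adjusted p = 2.38e-06), and Hpse2, an inactive heparanase relative, at 3.24 to 7.63 CPM in proximal and 0.0772 to 0.27 CPM in distal libraries. For Hpse2 the log2 fold change was -5.37 (SE 0.27, adjusted p = 1.55e-06). Cyp2c66 (log2 fold change -5.51, SE 0.58, adjusted p = 0.000119) and Acaa1b (log2 fold change -5.16, SE 0.36, adjusted p = 1.13e-05) were also ranked on this side, the latter with 49.9% unique words, as were Osr2, Hoxb6, Hoxb8 and the mitochondrial gene mt-Atp8.

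**Figure D3:**
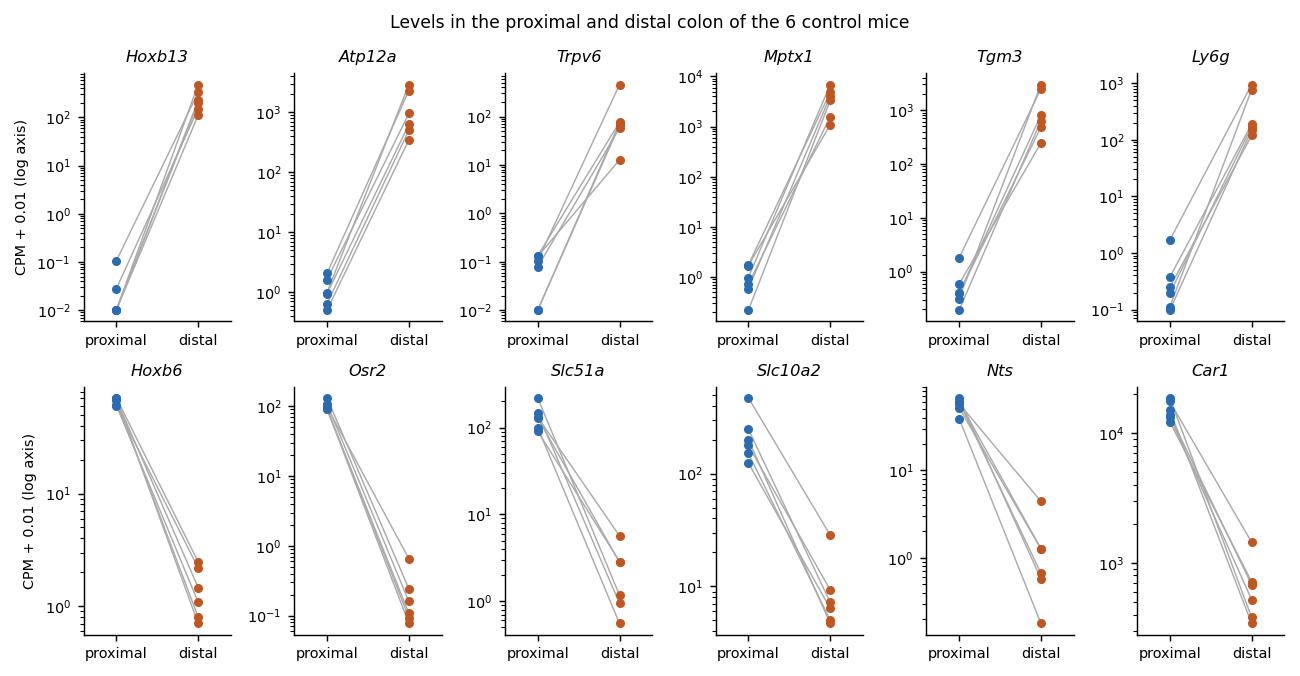
Levels of 12 genes in the 6 control mice. Each panel has proximal libraries in blue and distal libraries in orange, lines join the libraries of a mouse, and the y axis is CPM plus 0.01 on a log scale whose range differs between panels. In every panel all 6 lines run the same way and the groups do not overlap; the 6 distal levels spread most for Trpv6 and Nts.

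Promoters of 4 of these genes are shown because their genes are among the 30 ranked by size and have an entry in the RefSeq promoter table (GRCm38.p6), which holds 19 of the 30. Each line runs from 250 bases before to 50 after the start, on the gene's strand. Capitals mark matches, on either strand, to the TATA box letters TATAAA, the letters CAATAAA bound by posterior Hox and Cdx factors, and the forkhead letters TGTTTAC.
Mptx1 (chr1:174330268-174330567, plus strand): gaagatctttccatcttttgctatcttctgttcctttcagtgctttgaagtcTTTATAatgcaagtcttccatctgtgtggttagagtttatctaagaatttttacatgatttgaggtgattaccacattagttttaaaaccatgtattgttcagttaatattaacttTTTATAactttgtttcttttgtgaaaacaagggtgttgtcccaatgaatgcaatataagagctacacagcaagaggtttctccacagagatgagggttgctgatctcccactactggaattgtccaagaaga
Tgm3 (chr2:130012090-130012389, plus strand): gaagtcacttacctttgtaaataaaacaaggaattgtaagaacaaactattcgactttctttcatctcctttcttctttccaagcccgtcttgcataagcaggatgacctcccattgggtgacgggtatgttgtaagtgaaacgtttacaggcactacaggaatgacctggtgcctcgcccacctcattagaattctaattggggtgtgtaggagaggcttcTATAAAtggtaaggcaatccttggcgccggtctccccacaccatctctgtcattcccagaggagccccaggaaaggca
Hoxb8 (chr11:96281655-96281954, plus strand): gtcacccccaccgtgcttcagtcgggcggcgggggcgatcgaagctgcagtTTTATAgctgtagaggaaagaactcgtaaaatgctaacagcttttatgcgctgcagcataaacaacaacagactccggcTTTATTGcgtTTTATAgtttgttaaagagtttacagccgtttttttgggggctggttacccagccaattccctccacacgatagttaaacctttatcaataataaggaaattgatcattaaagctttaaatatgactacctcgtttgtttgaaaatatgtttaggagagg
Cyp3a25 (chr5:146009569-146009868, minus strand): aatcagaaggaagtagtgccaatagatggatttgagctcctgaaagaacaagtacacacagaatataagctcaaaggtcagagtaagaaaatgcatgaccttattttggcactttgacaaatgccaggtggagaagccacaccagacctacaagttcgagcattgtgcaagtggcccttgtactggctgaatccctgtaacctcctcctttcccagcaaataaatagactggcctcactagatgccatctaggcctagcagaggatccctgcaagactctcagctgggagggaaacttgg
Tgm3 has TATAAA at 28 bases before its start. Hoxb8 has the reverse of CAATAAA at 120 bases before its start, apart from its TATAAA matches, and Cyp3a25 has none of the 3 motifs. Over all 32817 promoters of that length, 13.6% hold TATAAA, 4.6% CAATAAA and 3.65% TGTTTAC. Among ranked genes with an entry, TGTTTAC was found for 0 of 8 higher in distal and 2 of 11 higher in proximal colon (Cyp3a44 and Slc26a1), CAATAAA for 2 and 2, and TATAAA for 4 and 5. A ranked gene counted if any of its promoter entries matched, whereas the shares over all promoters count single promoters. The 2 measures are therefore not alike.

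Most genes of sodium uptake were higher in distal colon. In the list of the epithelial sodium channel and the aldosterone response, 9 of the 12 tested members were called higher in distal and 1 higher in proximal colon (median log2 fold change 0.70). With epithelial scaling the calls were 5 higher in distal and 2 higher in proximal colon, with a median of 0.15. Scnn1a, the alpha subunit of the channel (ENSMUSG00000030340.16, GRCm38 chromosome 6 from 125320659 to 125344943 on the plus strand), was at 22.2 to 35.5 CPM in proximal (median 26.5) and 164 to 279.8 CPM in distal libraries (median 183) (log2 fold change 2.91, SE 0.17, adjusted p = 3.53e-06), with no overlap. The gamma subunit Scnn1g was at 0 to 0.254 CPM in proximal (median 0.113) and 0.436 to 10.6 CPM in distal libraries (median 1.57) (log2 fold change 4.14, SE 0.82, adjusted p = 0.00352), and the beta subunit Scnn1b was not called (4.7 to 6.32 CPM in proximal and 1.96 to 14.8 CPM in distal libraries). Hsd11b2, which shields the mineralocorticoid receptor from corticosterone, was at 129.5 to 194 CPM in proximal (median 171) and 279 to 524 CPM in distal libraries (median 347). For Hsd11b2 the log2 fold change was 1.13 (SE 0.11, adjusted p = 7.4e-05). The receptor itself, Nr3c2, was at 86 to 131 CPM in proximal (median 93.5) and 107 to 222 CPM in distal libraries (median 152) (log2 fold change 0.71, SE 0.14, adjusted p = 0.00297), and with epithelial scaling its call was lost (log2 fold change 0.16, adjusted p = 0.346). Tsc22d3, a glucocorticoid and mineralocorticoid target, was at 19.9 to 39.3 CPM in proximal (median 30.8) and 52.6 to 94.4 CPM in distal libraries (median 69.2) (log2 fold change 1.26, SE 0.17, adjusted p = 0.000495), whereas Fkbp5, another steroid target, was higher in proximal colon at 197 to 568 CPM in proximal (median 253) and 129.5 to 192 CPM in distal libraries (median 166). For Fkbp5 the log2 fold change was -0.79 (SE 0.18, adjusted p = 0.00613). Fxyd4, a regulator of the sodium pump, was called (log2 fold change 4.19, SE 1.31, adjusted p = 0.0277), but lost its call without replicate 6 (log2 fold change 2.69, adjusted p = 0.0596), and the call was also lost without replicate 1 or 5 (adjusted p = 0.0859 and 0.0556).

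For electroneutral exchange and chloride channels, 10 of the 18 tested members were called higher in distal and 0 higher in proximal colon (median log2 fold change 0.58). With epithelial scaling the calls were 6 higher in distal and 6 higher in proximal colon, with a median of 0.03. Slc26a3, the apical chloride-bicarbonate exchanger (ENSMUSG00000001225.12, GRCm38 chromosome 12 from 31390871 to 31473917 on the plus strand), was at 327 to 587 CPM in proximal (median 420.3) and 1370 to 3716 CPM in distal libraries (median 2402) (log2 fold change 2.38, SE 0.24, adjusted p = 9.21e-05), and its sodium-proton partner Slc9a3 at 155 to 1047 CPM in proximal and 599 to 1388 CPM in distal libraries. For Slc9a3 the log2 fold change was 1.74 (SE 0.32, adjusted p = 0.00228). Ano1, a calcium-activated chloride channel found in pacemaker and epithelial cells, was at 17.6 to 25.9 CPM in proximal (median 21.3) and 135 to 321 CPM in distal libraries (median 186). For Ano1 the log2 fold change was 3.26 (SE 0.20, adjusted p = 6.07e-06). The chloride channel Cftr and the cotransporter Slc12a2, which serve secretion, were not called (120.4 against 114 CPM and 311 against 245 CPM, proximal against distal means).

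Among potassium channels and pumps, 5 of 14 tested members were called higher in distal and 2 higher in proximal colon. The median was 0.05, and -0.50 with epithelial scaling. The sodium pump subunit Atp1b1 was at 941 to 1439 CPM in proximal (median 1073) and 1892 to 3240 CPM in distal libraries (median 2118). For Atp1b1 the log2 fold change was 1.07 (SE 0.14, adjusted p = 0.000391). It was higher in distal colon in every mouse. The basolateral channels Kcnq1 (log2 fold change -0.74, SE 0.20, adjusted p = 0.0149) and Kcnn4 (log2 fold change -0.56, SE 0.15, adjusted p = 0.0165) were higher in proximal colon.

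Of the carbonic anhydrases, which supply bicarbonate and protons for these exchangers, 5 of 13 tested members were called. That share is below the 43.3% called over all genes tested. Car1, the cytosolic form (ENSMUSG00000027556.15, GRCm38 chromosome 3 from 14766216 to 14808368 on the minus strand), was at 12270 to 18760 CPM in proximal (median 14380) and 341 to 1442 CPM in distal libraries (median 599.7). For Car1 the log2 fold change was -4.63 (SE 0.31, adjusted p = 9.1e-06). Car4, the membrane-anchored form (ENSMUSG00000000805.18, GRCm38 chromosome 11 from 84957786 to 84966044 on the plus strand), was at 319 to 666 CPM in proximal (median 405) and 2134 to 5812 CPM in distal libraries (median 2492). For Car4 the log2 fold change was 2.84 (SE 0.24, adjusted p = 4.02e-05). Neither overlapped, and they pointed in opposite directions. Of 13 tested anhydrases 1 was called higher in distal and 4 in proximal colon, the others being Car8 (log2 fold change -2.53, SE 0.36, adjusted p = 0.000547), Car5a (log2 fold change -2.29, SE 0.39, adjusted p = 0.0015) and Car12. Car12 (log2 fold change -0.88, SE 0.25, adjusted p = 0.0199) lost its call without replicate 6 (log2 fold change -0.71, adjusted p = 0.05) and in the mice without Cre alone (log2 fold change -0.44, adjusted p = 0.0827).

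Aquaporins divided too. Aqp4, a basolateral water channel, was at 8.71 to 41.8 CPM in proximal (median 26.8) and 242 to 656 CPM in distal libraries (median 420.5) (log2 fold change 4.21, SE 0.42, adjusted p = 8.97e-05), and Aqp8, a channel of the colonic surface, at 150.5 to 595 CPM in proximal (median 391) and 1008 to 2419 CPM in distal libraries (median 1707). For Aqp8 the log2 fold change was 2.23 (SE 0.35, adjusted p = 0.000953). Aqp1, known from endothelium and other tissues, was at 64.1 to 108 CPM in proximal (median 78.8) and 12.4 to 30.3 CPM in distal libraries (median 18) (log2 fold change -2.11, SE 0.19, adjusted p = 5.82e-05), and Aqp11 at 23.4 to 32.5 CPM in proximal (median 29.3) and 5.87 to 13.6 CPM in distal libraries (median 12.7). For Aqp11 the log2 fold change was -1.34 (SE 0.18, adjusted p = 0.000408). The first pair was higher in distal and the second in proximal colon in 6 of 6 mice, with no overlap. Aqp3 was at the edge of the threshold at a low level (log2 fold change -0.82, SE 0.30, adjusted p = 0.0473) and lost its call in 11 of 15 other settings.

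Claudins and other junction genes, which set the leak between cells, had 12 of 22 members called higher in distal and 3 in proximal colon (median 0.38, and -0.16 with epithelial scaling, where 2 and 6 were called). Cldn8, a sealing claudin, was at 20.5 to 43 CPM in proximal (median 29.7) and 136 to 431 CPM in distal libraries (median 184). For Cldn8 the log2 fold change was 2.84 (SE 0.25, adjusted p = 4.44e-05). Cldn2, a pore-forming claudin for cations, was at 146 to 265 CPM in proximal (median 172) and 36.4 to 102 CPM in distal libraries (median 58). For Cldn2 the log2 fold change was -1.58 (SE 0.21, adjusted p = 0.000415). The tight and the leaky claudin thus differed in opposite directions, both beyond the range of the other segment. Cldn15, another pore former, was also higher in proximal colon (log2 fold change -0.90, SE 0.21, adjusted p = 0.00747).

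Bile acids are taken up across the apical membrane and exported across the basolateral one. Slc10a2, the apical sodium-bile acid transporter (ENSMUSG00000023073.2, GRCm38 chromosome 8 from 5083219 to 5105351 on the minus strand), was at 124 to 469.9 CPM in proximal (median 189) and 4.68 to 28.4 CPM in distal libraries (median 6.77) (log2 fold change -4.67, SE 0.21, adjusted p = 8.9e-07), and the exporter subunit Slc51a was described above. Their receptor Nr1h4 was at 134 to 249 CPM in proximal (median 171) and 79.6 to 142 CPM in distal libraries (median 99.8). For Nr1h4 the log2 fold change was -0.74 (SE 0.13, adjusted p = 0.00205). The other exporter subunit Slc51b (log2 fold change 0.13, SE 0.19, adjusted p = 0.617) and the ileal binding protein Fabp6 (log2 fold change -0.34, SE 0.35, adjusted p = 0.449) were not called. Abcg5 and Abcg8, which pair to form the sterol exporter, were higher in distal colon (log2 fold change 3.74, SE 0.53, adjusted p = 0.000546, and log2 fold change 2.89, SE 0.55, adjusted p = 0.00279). In the list, 3 of 13 tested members were called higher in distal and 6 in proximal colon (median -0.34).

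Genes typical of small-intestinal enterocytes leaned the same way, with 2 of 19 called higher in distal and 8 in proximal colon (median -0.65). Alpi, the brush-border phosphatase, was at 23 to 144 CPM in proximal and 1.34 to 23.4 CPM in distal libraries (log2 fold change -2.76, SE 0.63, adjusted p = 0.00674), and the aminopeptidase Enpep at 15.3 to 87.9 CPM in proximal (median 24.2) and 3.08 to 8.16 CPM in distal libraries (median 5.08). For Enpep the log2 fold change was -2.32 (SE 0.24, adjusted p = 0.000104). Fabp1, a leading lipid carrier of the small intestine, was under 1 CPM in all 12 libraries. Slc5a1, the sodium-glucose transporter, went against the list (log2 fold change 0.66, SE 0.14, adjusted p = 0.00536), and so did Apob (log2 fold change 0.64, SE 0.20, adjusted p = 0.0261). Slc15a1, the proton-peptide transporter, counted among peptide transporters here, was at 1.23 to 3.79 CPM in proximal (median 1.63) and 73.4 to 301 CPM in distal libraries (median 102) (log2 fold change 6.16, SE 0.29, adjusted p = 1.18e-06) and so far higher in distal colon. In that list of 14, 6 were called higher in distal and 3 in proximal colon (median 0.27, and -0.28 with epithelial scaling).

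Detoxification genes were largely proximal: 3 of the 33 tested members were called higher in distal and 20 higher in proximal colon (median log2 fold change -0.79). Cyp2c55, a major colonic P450, was at 2921 to 5049 CPM in proximal and 342 to 2282 CPM in distal libraries (log2 fold change -2.58, SE 0.41, adjusted p = 0.00107), Ces1g, a carboxylesterase, at 177 to 233 CPM in proximal (median 229) and 7.53 to 17.8 CPM in distal libraries (median 11.9) (log2 fold change -4.27, SE 0.17, adjusted p = 4.44e-07), and Ugt1a1, the bilirubin-conjugating enzyme, at 259.5 to 534 CPM in proximal and 40 to 86.8 CPM in distal libraries. For Ugt1a1 the log2 fold change was -2.53 (SE 0.27, adjusted p = 0.000116). Transcripts of the Ugt1a locus share their last exons, so the split among its members is uncertain. Aldh1a1, which makes retinoic acid, was at 395 to 665 CPM in proximal and 15.2 to 123 CPM in distal libraries. For Aldh1a1 the log2 fold change was -3.09 (SE 0.48, adjusted p = 0.000902). Adh1, the alcohol dehydrogenase that feeds the same pathway, was higher in distal colon at 67 to 106 CPM in proximal (median 82.5) and 399.7 to 1508 CPM in distal libraries (median 738). For Adh1 the log2 fold change was 3.13 (SE 0.22, adjusted p = 1.1e-05). Adh1, Sult1b1 and Nr1i3 were the 3 members called higher in distal colon.

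In the list of short-chain fatty acid uptake and ketone body genes, 4 of 15 tested members were called higher in distal and 6 in proximal colon (median -0.17). Oxct1, which burns ketone bodies and is known as low in liver, was at 104 to 159.6 CPM in proximal (median 128) and 278 to 652 CPM in distal libraries (median 306). For Oxct1 the log2 fold change was 1.54 (SE 0.14, adjusted p = 6.31e-05). The segments did not overlap for this enzyme. Slc5a8, a sodium-coupled butyrate transporter, was at 249 to 405 CPM in proximal (median 334) and 607 to 826 CPM in distal libraries (median 781). For Slc5a8 the log2 fold change was 1.23 (SE 0.13, adjusted p = 0.00011). Both of these members are distal calls. Fatty acid oxidation genes had 13 of 22 members called higher in proximal and 3 in distal colon (median -0.36), and without replicate 2 the proximal calls were 8. Among them, Ppara, the receptor that drives this program, was at 13.4 to 22.9 CPM in proximal (median 17) and 3.28 to 6.78 CPM in distal libraries (median 4.71) (log2 fold change -1.85, SE 0.19, adjusted p = 9.18e-05), and Acaa2, a thiolase of the pathway, at 147 to 179.5 CPM in proximal (median 166) and 58.4 to 95.8 CPM in distal libraries (median 70.5). For Acaa2 the log2 fold change was -1.16 (SE 0.13, adjusted p = 0.00018).

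Cholesterol is made in a chain of reactions from acetyl-CoA. For this list, 18 of the 22 tested members were called higher in distal and 0 higher in proximal colon (median log2 fold change 0.67), and 0 of the 4 others was called. Hmgcs1, an early enzyme of the pathway, was at 152 to 333 CPM in proximal (median 192) and 333 to 725 CPM in distal libraries (median 496) (log2 fold change 1.27, SE 0.15, adjusted p = 0.000249), and Sqle, which makes squalene epoxide, at 58.1 to 101 CPM in proximal (median 67) and 126 to 221 CPM in distal libraries (median 163). For Sqle the log2 fold change was 1.15 (SE 0.11, adjusted p = 8.35e-05). With epithelial scaling the calls were 6 higher in distal and 3 higher in proximal colon, with a median of 0.12.

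In the guanylin system, which tunes fluid secretion through cyclic GMP, Prkg2, the kinase downstream, was at 59.3 to 97.6 CPM in proximal (median 66.5) and 1.05 to 13.5 CPM in distal libraries (median 6.45) (log2 fold change -3.77, SE 0.48, adjusted p = 0.000338), and the hormone Guca2b at 19.3 to 41.1 CPM in proximal (median 21.6) and 7.03 to 18.7 CPM in distal libraries (median 12.4). For Guca2b the log2 fold change was -0.95 (SE 0.20, adjusted p = 0.00456). The sister hormone Guca2a and the receptor Gucy2c were not called. Of the metal transport genes, 4 of 15 were called higher in distal and 5 in proximal colon, against 21.6% and 21.7% of all genes tested. The zinc and manganese exporter Slc30a10 was at 26.5 to 103 CPM in proximal (median 81.8) and 1.08 to 11.6 CPM in distal libraries (median 4.16) (log2 fold change -4.17, SE 0.52, adjusted p = 0.000275), opposite in direction to Trpv6, and the iron oxidase Heph at 142 to 208 CPM in proximal (median 157) and 219 to 404 CPM in distal libraries (median 304). For Heph the log2 fold change was 0.85 (SE 0.11, adjusted p = 0.00034).

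In the goblet cell list, 13 of the 24 tested members were called higher in distal and 3 higher in proximal colon (median log2 fold change 1.16), and with epithelial scaling 13 higher in distal and 4 higher in proximal colon, with a median of 0.61. Clca1, a secreted mucus-processing protease (ENSMUSG00000028255.6, GRCm38 chromosome 3 from 145003817 to 145032776 on the minus strand), was at 515 to 1448 CPM in proximal (median 852) and 8921 to 14510 CPM in distal libraries (median 13080). For Clca1 the log2 fold change was 3.85 (SE 0.23, adjusted p = 4.73e-06). Fcgbp, a mucin-associated protein, was at 1113 to 2621 CPM in proximal (median 1354) and 7423 to 11330 CPM in distal libraries (median 10340) (log2 fold change 2.71, SE 0.23, adjusted p = 3.36e-05), and Zg16, a lectin that keeps gram-positive bacteria from the epithelium, at 898 to 1343 CPM in proximal (median 1143) and 3485 to 6829 CPM in distal libraries (median 4935). For Zg16 the log2 fold change was 2.13 (SE 0.18, adjusted p = 3.83e-05). Each distal library exceeded each proximal one for these 3 genes. The gel-forming mucin Muc2 was not among them (1464 to 2919 CPM in proximal and 463 to 2671 CPM in distal libraries; log2 fold change -0.73, SE 0.28, adjusted p = 0.0589). Spdef and Agr2, a goblet cell master factor and a mucin-folding protein, were higher in proximal colon (log2 fold change -0.86, SE 0.13, adjusted p = 0.000783, and log2 fold change -0.61, SE 0.12, adjusted p = 0.00387), as was Klk1, which lost its call without replicate 2 (log2 fold change -0.45, adjusted p = 0.0515). Ang4, an antimicrobial ribonuclease, was at 7.74 to 17.6 CPM in proximal (median 10.9) and 19.7 to 2134 CPM in distal libraries (median 1041). For Ang4 the log2 fold change was 6.07 (SE 0.91, adjusted p = 0.000793). Retnlb, a goblet cell protein induced by microbes and worms, was at 8.71 to 153 CPM in proximal (median 103) and 24.5 to 1871 CPM in distal libraries (median 756) (log2 fold change 2.86, SE 0.79, adjusted p = 0.0169). It lost its call without replicate 2, 4 or 5 in turn (adjusted p = 0.0528, 0.0502 and 0.0592) and without the 18-month mice (log2 fold change 2.06, adjusted p = 0.155).

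Enzymes that decorate mucins with sugars were mixed, with 11 of 25 listed genes called higher in distal and 6 in proximal colon (median 0.16, and -0.40 with epithelial scaling). St3gal6, a sialyltransferase, was at 12.2 to 16.2 CPM in proximal (median 14.2) and 164 to 259 CPM in distal libraries (median 199) (log2 fold change 3.83, SE 0.10, adjusted p = 5.47e-08), and St3gal4 at 37.5 to 311 CPM in proximal (median 93.6) and 323 to 752 CPM in distal libraries (median 521). For St3gal4 the log2 fold change was 2.45 (SE 0.22, adjusted p = 5.52e-05). Gcnt4, a core branching enzyme, was at 12.5 to 26 CPM in proximal (median 15.6) and 1.72 to 4.16 CPM in distal libraries (median 3.02) (log2 fold change -2.55, SE 0.16, adjusted p = 7.02e-06), and Gcnt3 was also higher in proximal colon (log2 fold change -1.54, SE 0.16, adjusted p = 0.000112).

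Antimicrobial defence genes were mostly distal. Here 18 of the 22 tested members were called higher in distal and 2 higher in proximal colon (median log2 fold change 1.54), and with epithelial scaling 14 and 2. Nos2, the inducible nitric oxide synthase, was at 19.2 to 54.3 CPM in proximal (median 20.5) and 124 to 301 CPM in distal libraries (median 213) (log2 fold change 3.05, SE 0.29, adjusted p = 6.66e-05), Duox2, which makes hydrogen peroxide, at 259 to 537 CPM in proximal and 791 to 1236 CPM in distal libraries (log2 fold change 1.44, SE 0.16, adjusted p = 0.000171), and Lypd8, a protein that binds flagella, at 5504 to 8496 CPM in proximal and 11300 to 26050 CPM in distal libraries. For Lypd8 the log2 fold change was 1.27 (SE 0.24, adjusted p = 0.00247). The exceptions were the lectins Reg3b (789 to 5688 CPM in proximal and 22.9 to 469 CPM in distal libraries; log2 fold change -4.15, SE 0.77, adjusted p = 0.00252) and Reg3g (log2 fold change -3.45, SE 0.61, adjusted p = 0.00191), which were the 2 members higher in proximal colon. Sprr2a1 and Sprr2a3 share most of their sequence (3.06% and 26.4% unique words), so the Sprr2a values are uncertain one by one. Ang4, Zg16 and Retnlb are in the goblet cell list too.

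Enteroendocrine cells are the hormone cells of the epithelium. Insl5, a peptide of distal L cells, was at 0.0716 to 0.84 CPM in proximal (median 0.683) and 37.2 to 67.7 CPM in distal libraries (median 46.1). For Insl5 the log2 fold change was 6.34 (SE 0.33, adjusted p = 2.01e-06). Pyy, which slows transit, was at 29.4 to 37.8 CPM in proximal (median 32) and 66.4 to 117 CPM in distal libraries (median 80.3) (log2 fold change 1.35, SE 0.13, adjusted p = 6.93e-05), and Tac1, made by enterochromaffin cells and neurons, at 10.4 to 13.9 CPM in proximal (median 12.3) and 21.3 to 270.1 CPM in distal libraries (median 53.6) (log2 fold change 2.43, SE 0.50, adjusted p = 0.00397; 1.55 in the mice without Cre alone). These 3 were the hormones called higher in distal colon, out of 14 tested. Beside Nts, secretin (Sct) was higher in proximal colon at 21.8 to 37.7 CPM in proximal (median 28.6) and 3.89 to 8.93 CPM in distal libraries (median 5.99) (log2 fold change -2.31, SE 0.23, adjusted p = 8.03e-05), and so was somatostatin (Sst) at 14.5 to 22.6 CPM in proximal (median 20.7) and 3.51 to 9.05 CPM in distal libraries (median 6.52). For Sst the log2 fold change was -1.69 (SE 0.19, adjusted p = 0.000141). Gcg, the precursor of GLP-1, was not called and had close means of 46.9 against 45.7 CPM. Also higher in proximal colon were Gal (log2 fold change -2.13, SE 0.23, adjusted p = 0.000133) and Iapp (log2 fold change -4.31, SE 0.46, adjusted p = 0.00012). Cck, Cartpt and Tph1 made 8 with these, but each lost its call when some single mice were left out, with adjusted p up to 0.0934, 0.0923 and 0.0707. Of the general markers of the lineage, 2 of 22 were called higher in distal and 8 in proximal colon (median -0.70). Chga was at 74.2 to 206 CPM in proximal (median 106) and 29.6 to 68.6 CPM in distal libraries (median 36.9) (log2 fold change -1.47, SE 0.23, adjusted p = 0.000953), and the prohormone convertase Pcsk1 at 18.5 to 28.5 CPM in proximal (median 25.3) and 6.78 to 11.2 CPM in distal libraries (median 9.42). For Pcsk1 the log2 fold change was -1.44 (SE 0.14, adjusted p = 9.02e-05).

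Tuft cell genes, markers of chemosensory epithelial cells, had 5 of 19 members called higher in distal and 0 in proximal colon. The first is near the background share and the second below it. The median was 0.07 (-0.48 with epithelial scaling). Of the distal calls, those of Alox5, Gfi1b and Gnat3 were lost with epithelial scaling (adjusted p = 0.293, 0.113 and 0.148). In the list of Paneth and deep crypt secretory cells, 5 of 10 were called higher in distal and 3 in proximal colon (median 0.37, and -0.19 with epithelial scaling). Besides Mptx1, its relative Mptx2 held 200 counts in distal and 0 in proximal libraries, at least 79.4-fold higher in distal colon against the floor of 3 counts. Reg4, a marker of deep crypt secretory cells, was at 135 to 399 CPM in proximal (median 360.2) and 44 to 142 CPM in distal libraries (median 98) (log2 fold change -1.77, SE 0.36, adjusted p = 0.00378), and Mmp7, which activates defensins, at 0.668 to 6.6 CPM in proximal (median 2.91) and 0.209 to 0.604 CPM in distal libraries (median 0.314). For Mmp7 the log2 fold change was -3.01 (SE 0.42, adjusted p = 0.000536).

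In the proliferation list, 0 of the 25 tested members were called higher in distal and 21 higher in proximal colon (median log2 fold change -0.61). In the 4 mice without Cre 13 were called higher in proximal colon, and without the 18-month mice 9. The differences were small and none of the 25 genes separated the segments without overlap: Mcm5, a replication helicase subunit, was at 22.7 to 42.1 CPM in proximal (median 31.8) and 12.5 to 24.1 CPM in distal libraries (median 20.8) (log2 fold change -0.75, SE 0.15, adjusted p = 0.00332), and Ccnb1, a mitotic cyclin, at 22.5 to 38 CPM in proximal and 10.7 to 29.1 CPM in distal libraries. For Ccnb1 the log2 fold change was -0.89 (SE 0.19, adjusted p = 0.00539). Of 24 stem cell and Wnt target genes, 1 was called higher in distal and 10 in proximal colon (median -0.52). Sp5, a direct Wnt target, was at 1.66 to 3.37 CPM in proximal (median 1.91) and 0.0772 to 0.662 CPM in distal libraries (median 0.405) (log2 fold change -2.65, SE 0.34, adjusted p = 0.00034), Cd44 at 60.3 to 91.9 CPM in proximal (median 75) and 17.8 to 36.8 CPM in distal libraries (median 33.9) (log2 fold change -1.29, SE 0.15, adjusted p = 0.000207), and the stem cell receptor Lgr5 at 3.95 to 6.18 CPM in proximal and 1.31 to 5.59 CPM in distal libraries. For Lgr5 the log2 fold change was -1.33 (SE 0.33, adjusted p = 0.01). The Wnt target Axin2 was not called (log2 fold change -0.03, SE 0.27, adjusted p = 0.931). Of 18 tested Wnt ligands, R-spondins and antagonists, 2 were called higher in distal and 3 in proximal colon, below the background share.

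Bmp and hedgehog genes had 3 of 21 called higher in distal and 11 in proximal colon (median -0.35). Bmp2, a ligand of the differentiated surface, was at 24.1 to 36.5 CPM in proximal (median 28.8) and 79.4 to 245 CPM in distal libraries (median 107) (log2 fold change 2.16, SE 0.24, adjusted p = 0.000156), and Bmp3, a divergent member of the family, at 72.8 to 135 CPM in proximal (median 82.5) and 14.6 to 30.1 CPM in distal libraries (median 17.2). For Bmp3 the log2 fold change was -2.23 (SE 0.10, adjusted p = 8.61e-07). The ligands were separated in opposite directions. Grem1, a Bmp antagonist of the crypt base, was higher in distal colon (log2 fold change 1.61, SE 0.28, adjusted p = 0.00162), and the hedgehog ligand Shh and its target Gli1 were higher in proximal colon (log2 fold change -2.37, SE 0.38, adjusted p = 0.00114, and log2 fold change -1.27, SE 0.20, adjusted p = 0.00104).

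Antigen presentation by MHC class II had 10 of 11 members called higher in distal and 0 in proximal colon (median 1.20), and 8 and 0 with epithelial scaling. Without the mouse block 6 were called higher in distal colon. Ciita, the master activator of these genes, was at 5.49 to 37.9 CPM in proximal (median 16.3) and 32.7 to 66.2 CPM in distal libraries (median 44.6) (log2 fold change 1.62, SE 0.21, adjusted p = 0.000349), and the invariant chain Cd74 at 215 to 1393 CPM in proximal (median 861) and 1315 to 2782 CPM in distal libraries (median 2084). For Cd74 the log2 fold change was 1.57 (SE 0.26, adjusted p = 0.00122). The levels varied several-fold between mice and overlapped, but the distal library was the higher one in 6 of 6 mice for both. Without the mouse block, H2-Eb1 and H2-DMb2 lost their calls (log2 fold change 0.95, adjusted p = 0.0837, and log2 fold change 1.27, adjusted p = 0.0635). Interferon-stimulated genes had 11 of 24 called higher in distal and 0 in proximal colon (median 0.59), and 6 and 2 with epithelial scaling (median 0.03). Without replicate 4 or 5 the distal calls were 7, and without the 18-month mice 6. Gbp2, an interferon-induced GTPase, was at 13.2 to 37.5 CPM in proximal (median 26) and 52.6 to 211 CPM in distal libraries (median 136) (log2 fold change 2.21, SE 0.17, adjusted p = 1.79e-05), and Ifit1bl1 at 105 to 416 CPM in proximal (median 232) and 876 to 1924 CPM in distal libraries (median 1329). For Ifit1bl1 the log2 fold change was 2.52 (SE 0.35, adjusted p = 0.000543).

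B cells and lymphoid follicles followed: 13 of the 15 tested members were called higher in distal and 0 higher in proximal colon (median log2 fold change 1.35), and with epithelial scaling 9 and 0. Without the mouse block 0 of the 15 were called, with a median of 1.38, and without the 18-month mice 9 were called higher in distal colon. Ms4a1, which encodes CD20, was at 1.91 to 22 CPM in proximal (median 3.6) and 5.56 to 55 CPM in distal libraries (median 12) (log2 fold change 1.49, SE 0.27, adjusted p = 0.00228), and Cr2, the complement receptor of B cells and follicular dendritic cells, at 0.716 to 14.7 CPM in proximal (median 1.62) and 2.39 to 39.9 CPM in distal libraries (median 7.04). For Cr2 the log2 fold change was 1.69 (SE 0.30, adjusted p = 0.00209). The ranges overlapped widely between mice, but both were higher in distal colon in 6 of 6 mice, and both calls were lost without the mouse block (log2 fold change 1.46, adjusted p = 0.0936, and log2 fold change 1.60, adjusted p = 0.123). The number of follicles in a tissue piece was not known. T and NK cell markers ran the other way, with 1 of 18 called higher in distal and 7 in proximal colon (median -0.55). In the 4 mice without Cre, and also without the 18-month mice, the proximal calls were 4. Cd8a was at 6.98 to 15.4 CPM in proximal (median 11.1) and 2.47 to 7.06 CPM in distal libraries (median 5.94) (log2 fold change -1.02, SE 0.23, adjusted p = 0.00731), and the killer cell gene Nkg7 at 2.08 to 4.22 CPM in proximal (median 3.42) and 1.55 to 2.3 CPM in distal libraries (median 1.82). For Nkg7 the log2 fold change was -0.78 (SE 0.17, adjusted p = 0.00545).

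Plasma cell markers had 3 of 11 called higher in distal and 1 in proximal colon (median 0.41, and -0.15 with epithelial scaling), and Jchain was not called. Macrophage markers had 3 of 17 called higher in distal and 0 in proximal colon, below the background, and without replicate 6 the calls were 2 and 5. Mast cell markers had 5 of 8 called higher in distal and 0 in proximal colon, all from genes under 3 CPM, and 3 and 1 with epithelial scaling. Chemokines had 7 of 21 called higher in distal and 4 in proximal colon (median 0.58, and 0.02 with epithelial scaling). Ccl20, which draws cells to lymphoid follicles, was at 0.963 to 2.38 CPM in proximal (median 1.61) and 13.9 to 35.4 CPM in distal libraries (median 20) (log2 fold change 3.68, SE 0.17, adjusted p = 1.06e-06), and Ccl28, which draws IgA-producing cells to mucosae, at 70.3 to 117 CPM in proximal (median 98.8) and 202 to 452 CPM in distal libraries (median 268). For Ccl28 the log2 fold change was 1.64 (SE 0.20, adjusted p = 0.000275).

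Smooth muscle markers had 9 of 15 called higher in proximal and 0 in distal colon (median -0.54). Myh11, smooth muscle myosin, was at 264 to 626 CPM in proximal (median 547) and 138 to 395 CPM in distal libraries (median 298) (log2 fold change -0.90, SE 0.16, adjusted p = 0.00189), whereas Des and Tagln were not called (357 against 353 CPM and 452 against 476 CPM, proximal against distal means). Of 5 tested markers of interstitial cells of Cajal, the gut's pacemaker cells, 2 were called higher in distal and 1 in proximal colon. The listed matrix gene Thbs4 was at 18 to 25.1 CPM in proximal (median 21.5) and 210.3 to 324 CPM in distal libraries (median 239) (log2 fold change 3.55, SE 0.12, adjusted p = 1.98e-07), the other distal call was Ano1, and the defining receptor Kit was not called (50.5 against 39.4 CPM). Neuron and glia markers had 0 of 19 called higher in distal and 6 in proximal colon, and without replicate 6 the proximal calls were 10. Gfap, of enteric glia, was at 2.93 to 5.17 CPM in proximal (median 3.64) and 0.46 to 1.99 CPM in distal libraries (median 1.4). For Gfap the log2 fold change was -1.68 (SE 0.26, adjusted p = 0.000857). Fibroblast markers had 1 of 14 called higher in distal and 3 in proximal colon, neither above the background share. In the 4 mice without Cre 1 of the 14 was called higher in distal and 7 in proximal colon (median -0.45, against -0.16 in all 6 mice), and with epithelial scaling 0 and 10. Among them Adamdec1, a marker of lamina propria fibroblasts, was at 189.9 to 507 CPM in proximal (median 450.2) and 44.3 to 106 CPM in distal libraries (median 63.3) (log2 fold change -2.47, SE 0.23, adjusted p = 6.04e-05) and the growth factor receptor Pdgfra at 30 to 46.8 CPM in proximal (median 36.6) and 11.1 to 26.9 CPM in distal libraries (median 18.1). For Pdgfra the log2 fold change was -0.97 (SE 0.13, adjusted p = 0.00041). Endothelial markers had 0 of 13 called higher in distal and 4 in proximal colon, against 21.6% and 21.7% of all genes tested.

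Adipocyte markers had 0 of 9 called. Their median difference was 3.11 in replicate 1 and between -1.84 and -0.79 in the 5 other mice, and in the 4 mice without Cre all 9 were called higher in proximal colon (median -1.36). Markers of neighbouring organs were also looked at. Pancreatic acinar markers summed to 27.5 to 62.9 CPM in proximal and 191 to 530 CPM in distal libraries, with 4 of 6 called higher in distal colon. Sycn, a zymogen granule protein, was at 0.74 to 10.7 CPM in proximal (median 5.62) and 75.8 to 189.8 CPM in distal libraries (median 137) (log2 fold change 4.72, SE 0.34, adjusted p = 1.34e-05) and Cela1 at 26.4 to 48.7 CPM in proximal (median 41) and 79.2 to 189 CPM in distal libraries (median 100.4) (log2 fold change 1.53, SE 0.17, adjusted p = 0.00015), in every mouse. Ctrb1 (log2 fold change 6.61, SE 1.60, adjusted p = 0.00927) was at 71.1 CPM in distal replicate 4 and at 0.0981 to 0.28 CPM in the 5 other distal libraries, DESeq2 gave it a log2 fold change of 3.31, and without replicate 2 or 4 it did not pass the filter on low counts. Of 10 markers of male accessory glands only Spink1, a trypsin inhibitor also known from gut, passed the filter, at 5.45 to 11.9 CPM in proximal (median 6.47) and 209.6 to 736 CPM in distal libraries (median 289) (log2 fold change 5.59, SE 0.35, adjusted p = 5.37e-06), and 7 were at 0 in all libraries. Squamous epithelium markers had 3 of 11 tested genes called higher in distal and 1 in proximal colon, and 15 of the 22 listed were under 1 CPM. Their median of 0.17 was -0.37 with epithelial scaling, where 3 and 3 were called. The keratin Krt13 was at 0.0203 to 0.143 CPM in proximal and 0.564 to 3.47 CPM in distal libraries.

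**Figure D4:**
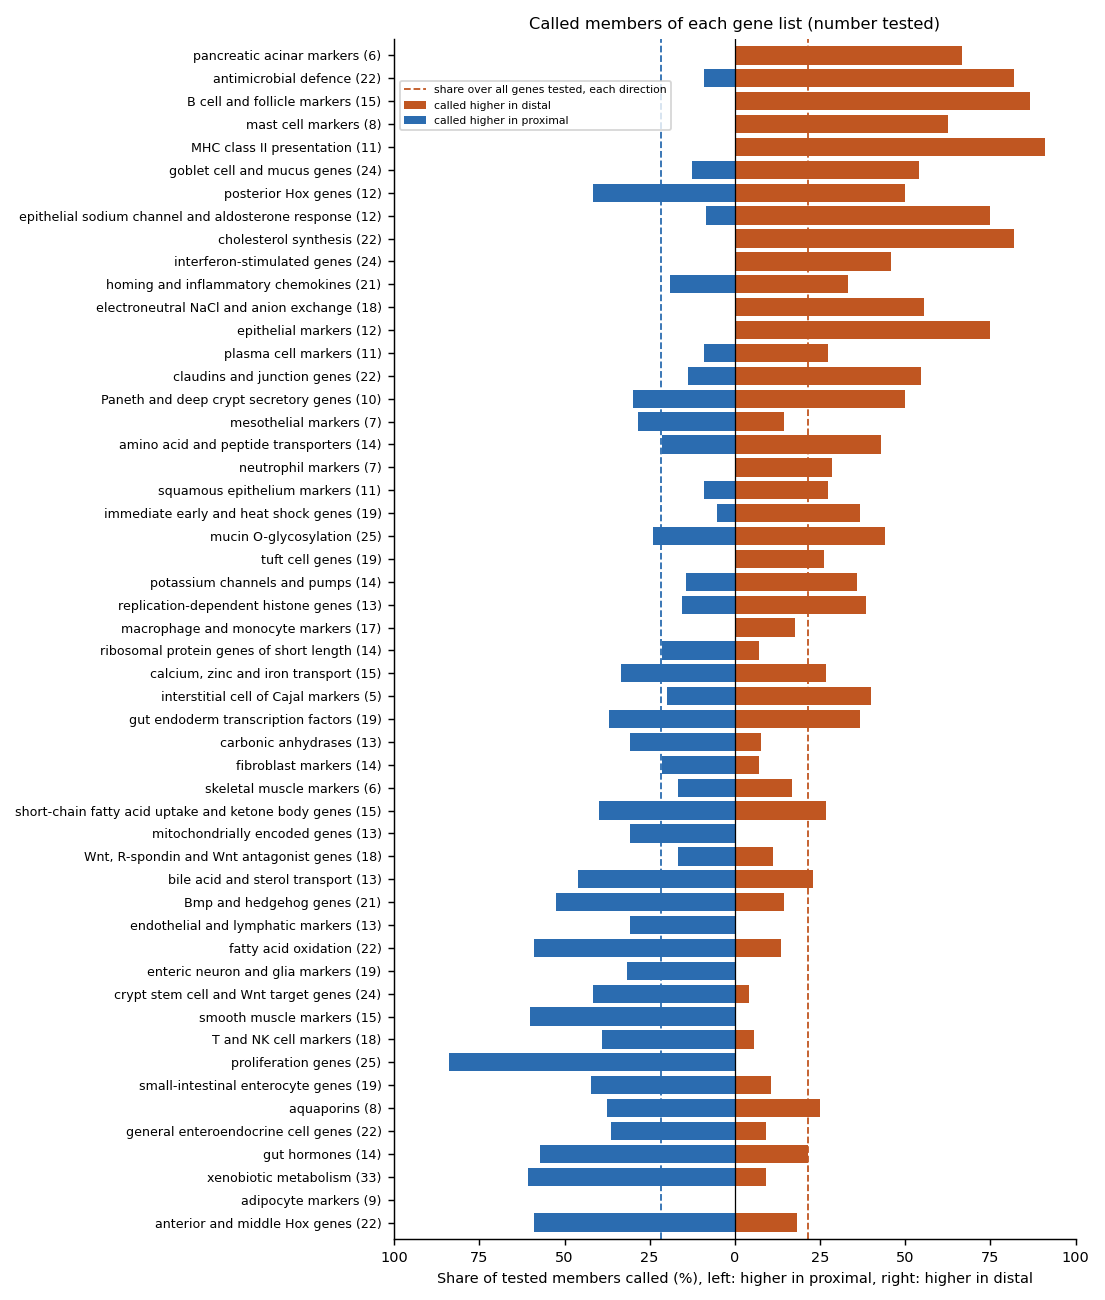
Share of the tested members of each gene list with at least 5 tested members that was called higher in distal colon (orange, right) or higher in proximal colon (blue, left), in percent of tested members (number in brackets), lists sorted by median log2 fold change. Dashed lines mark the shares over all genes tested, 21.6% and 21.7%. MHC class II, B cell, cholesterol synthesis and antimicrobial genes reach furthest to the right and proliferation genes furthest to the left.

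Of 19 immediate early and heat shock genes, 7 were called higher in distal and 1 in proximal colon (median 0.17, and -0.38 with epithelial scaling). Fos was at 35.5 to 81.3 CPM in proximal (median 41.9) and 167 to 335 CPM in distal libraries (median 183) (log2 fold change 2.08, SE 0.19, adjusted p = 4.99e-05) and Atf3 at 16.4 to 26.1 CPM in proximal (median 20.1) and 33.3 to 114 CPM in distal libraries (median 92.3) (log2 fold change 1.99, SE 0.25, adjusted p = 0.0003), both without overlap. Of 13 mitochondrially encoded genes 4 were called, all higher in proximal colon: mt-Atp8, mt-Co2, mt-Nd3 and mt-Nd4l. mt-Atp8, 204 bases long, had a median effective length of 39.4 bases in the proximal and 13.6 bases in the distal libraries and was at 152 to 209 CPM in proximal (median 192) and 0.812 to 1.41 CPM in distal libraries (median 1.02). For mt-Atp8 the log2 fold change was -7.47 (SE 0.17, adjusted p = 3.98e-08). The other 3 have under 2% unique 31-base words, and mt-Nd4l lost its call with a length offset (log2 fold change -0.17, adjusted p = 0.45). Short ribosomal protein genes had 1 of 14 called higher in distal and 3 in proximal colon, below the background. Rpl37 changed direction with a length offset (log2 fold change 0.22, adjusted p = 0.124). The effect of fragment length handling on these genes cannot be told apart from the segment.

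The size of the differences varied from mouse to mouse. The median difference of the xenobiotic list lay between -0.97 and -0.63 in the 6 mice, and that of goblet cell genes between 0.87 and 1.29. The B cell list spread from 0.23 in replicate 4 to 2.18 in replicate 3, the interferon list from -0.52 in replicate 3 to 1.47 in replicate 4, and the smooth muscle list from -1.19 in replicate 1 to 0 in replicate 5. Proliferation genes were at -0.08 in replicate 3 and -1.28 in replicate 1. The anterior and middle Hox genes lay between -2.97 and -1.22 in the 6 mice.

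**Figure D5:**
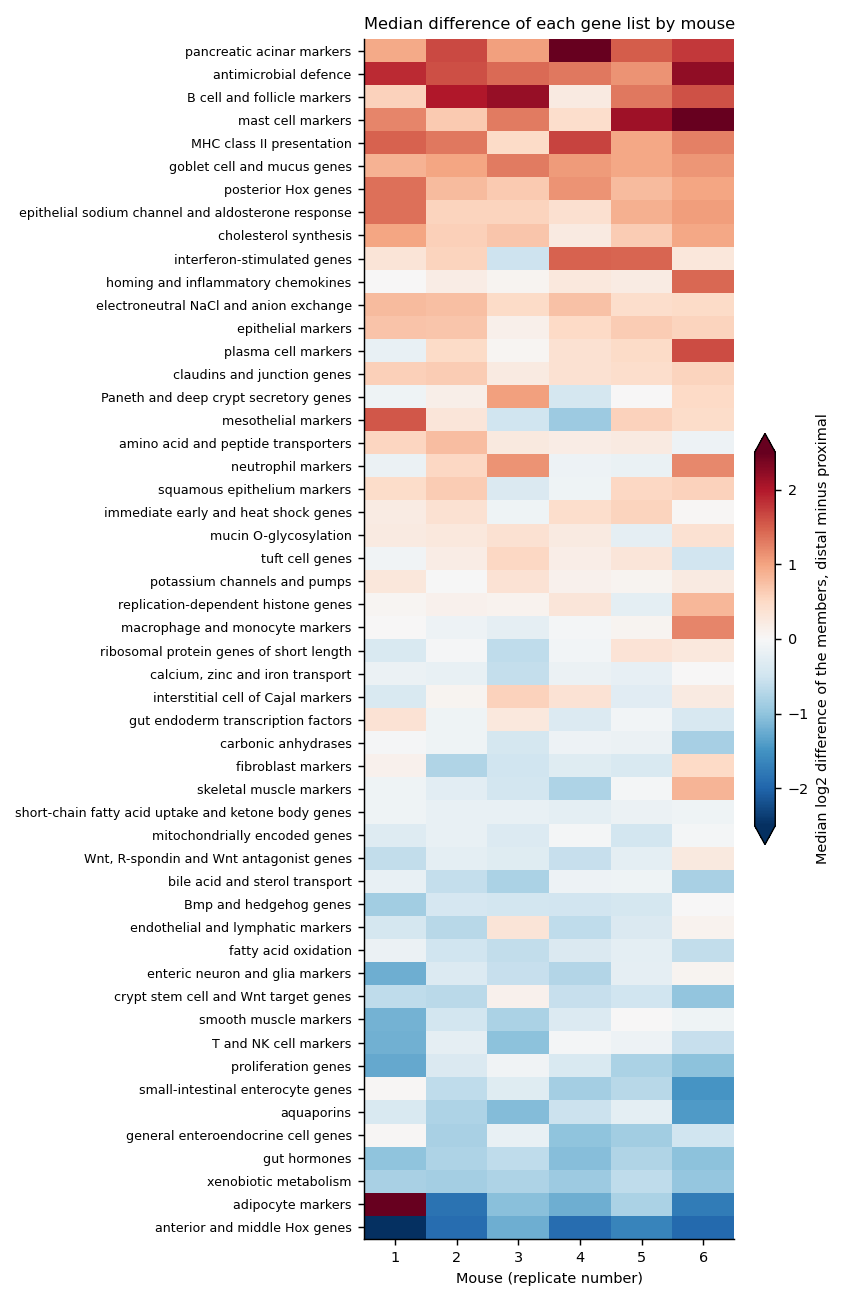
Median log2 difference, distal minus proximal, of the members of each list in each of the 6 control mice (columns), red higher in distal and blue higher in proximal colon; colours end at 2.5 on either side. Goblet cell, antimicrobial, MHC class II and Hox rows keep their colour in all 6 columns, and the adipocyte row is red in replicate 1 alone.

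The segment difference was also set against that of 7 Foxa1/Foxa2-deficient mice, whose libraries are separate from those of the controls. It differed between the genotype groups for 178 of 17595 genes tested (1.01%; edgeR interaction of segment and genotype, 26 libraries, mouse as a block). Of 7605 control calls that could be tested there, 7359 had the same sign in deficient mice, and 121 were called for a difference between the groups. The share with the same sign over all genes tested was not computed. Fragment length was handled differently in the segments of deficient mice too, at 249 bases in distal and 214.56 to 245.61 bases in proximal libraries. The same sign therefore cannot tell the segment apart from that handling, and mt-Atp8 also kept its value (-7.48 in controls and -7.82 in deficient mice). Among the 30 ranked genes 2 were called. St8sia5 had a log2 fold change of 12.25 in controls and 2.61 in deficient mice (difference -9.64, SE 1.66, adjusted p = 0.00891), and Ugt8a -6.12 and -9.72 (difference -3.60, SE 0.74, adjusted p = 0.0294). St8sia5 held 1 count over the proximal libraries of these controls, so the size of its control value and of the difference is uncertain. Levels in the deficient mice are not given. Hoxb13 (difference -1.05, SE 0.80, adjusted p = 0.657) and Atp12a (-0.39, SE 0.52, adjusted p = 0.822) were not called, which does not show that the groups were alike. The deficient group included 2 female mice and the controls none, and sex was not a term of this fit.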

How the data were processed

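Poly(A) RNA libraries of the 12 samples were quantified by the submitters with kallisto 0.46.2 after cutadapt 2.5 and bcl2fastq 2.20.0.422 on GRCm38, per the submitters' processing notes, whereas neither the transcript release nor the read layout is stated. The authors deposited estimated counts and TPM per transcript for each library. The deposited TPM were summed per gene only as a description of levels per length and are not printed. Of 119414 transcripts, 116728 matched GENCODE M21 and were summed to 35975 genes and rounded, and 2686 were left out. Genes were tested with edgeR 4.0.16 (R 4.3.3, filterByExpr, TMM, quasi-likelihood F test, mouse as a block) and Benjamini-Hochberg adjustment. The SE printed is the size of the log2 fold change divided by the square root of its F statistic. It does not measure the spread of levels between mice. For genes near 0 in a segment it can understate the uncertainty. Pairing rests on the shared animal, and deviations of same-mouse libraries correlated at 0.15, 0.31, -0.04, 0.4, 0.41 and 0.3 in replicates 1 to 6. The log2 differences per mouse used a prior count of 2. The models were tested on simulated counts in which few genes were changed, balanced between up and down. Those counts had no shift in composition, so they could not check the choice of scaling.

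Named genes were the 15 largest called changes each way with a mean of at least 5 CPM and 1 direction in all 6 mice, without unnamed, immunoglobulin, T cell receptor and sex-linked genes, and up to 4 called members of smallest p of each of 55 lists (every called member for 6 kinds of list), with Foxa1 and Foxa2. Not all of these 262 genes are printed, some are not reported here, and other list members named were chosen after their values were seen. Members and lists were chosen with earlier results of these data known. The share of 31-base words unique to a gene was computed over GENCODE M21 transcripts. Alternatives were 15 other settings, among them DESeq2 1.42.0, a transcript-length offset, scaling to 9 epithelial genes and leaving out each mouse. Separate log2 tables that the authors deposited per segment were not used here, since they were normalised apart.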

Additional observations from a re-analysis of the deposited data

Results flagged for a closer look

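In 21 of the 262 named genes the paired log2 difference (distal minus proximal) of 1 mouse lay outside those of the 5 others by Dixon's test, where chance gives about 1 gene in 20. Replicate 1 stood apart for Cdh1 at 1.35 (nearest other mouse 0.80), Hoxa5 at 0.80 (1.39), Hsd11b2 at 1.57 (1.11), Myh11 at -1.78 (-0.93), Slc26a1 at -7.77 (-5.75) and Sox10 at -2.37 (-1.21). Replicate 3 stood apart for Hoxa6 at 3.08 (1.55), Mcm6 at 0.02 (-0.65), Mcm7 at -0.08 (-0.75) and Zfp36 at -0.06 (0.58). With epithelial scaling the call of Zfp36 was lost (log2 fold change 0.05, adjusted p = 0.672). Replicate 4 did so for Ctrb1 at 9.51 (1.99), Hoxa11 at 3.37 (2.38), Hoxa9 at 5.01 (3.82) and mt-Atp8 at -6.71 (-7.37), and replicate 5 for Osr2 at -7.15 (-8.89). Replicate 6, the Foxa1lox/lox Cre carrier, stood apart for Aqp11 at -2.39 (-1.26), Fcgbp at 1.56 (2.74), Gbp2 at 3.18 (2.18), Hoxb9 at -2.09 (-1.13), Insl5 at 8.59 (6.64) and Postn at 0.24 (-0.96). Replicates 1 and 6, which are 2 of the 6 mice and the Cre carriers, hold 12 of the 21. Their distal libraries also had the lowest TMM factors of the 12 libraries, 0.821 and 0.788. Distal replicate 1 had the fewest estimated counts, 29381431. Whether any of these traits relates to the flags was not tested. The segment difference of 2 ranked genes differed between deficient and control mice by the interaction test, St8sia5 by -9.64 and Ugt8a by -3.60 on the log2 scale. The size for St8sia5 is uncertain, as it held 1 count over the proximal control libraries.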

How the results depend on the processing

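Scaling to 9 epithelial genes gave 12440 calls, 1490 higher in distal and 10950 higher in proximal colon, and 5306 of at least 2-fold, where 1186 calls of the scaling to all genes changed sign. It turned 7 of the 262 named genes, all to log2 fold changes near 0 and not called: Csf1r (-0.11), Fbln1 (-0.02), Kcnk6 (-0.03), Nedd4l (-0.18), Prdm1 (-0.03), Rpl35a (-0.01) and Vil1 (-0.01). A further 18 named genes lost their call under this scaling and kept their sign. A transcript-length offset turned Rpl37 (0.22) and left 7427 calls, 64 of the earlier ones with the other sign. Without the replicate block 7231 genes were called, and 18 named genes lost their call. The other settings left every total count within 1.5 times: 7706 calls with RLE factors, 8111 with DESeq2, 7818 without a filter, 7588 without transcripts under 500 bases, 5804 in the mice without Cre and 5797 without the 18-month mice. Leaving out each mouse gave 5740 to 7708 calls, 3042 to 3858 higher in distal, 2698 to 3850 higher in proximal colon and 2677 to 3038 of at least 2-fold. The genotype difference was called for 162 to 222 genes, against 178. How reads were assigned to short transcripts and to genes with few unique words was not tested, and for genes near the floor of 3 counts per segment depth limits what can be seen.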
